A study of Mus musculus with 18 samples.

Results

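The transcripts of 10 genes of the unfolded protein response of the endoplasmic reticulum (ER) were followed in bone marrow-derived macrophages (BMDMs) with and without the prolyl endopeptidase gene Prep. The genes were taken by symbol (Hspa5, Hsp90b1, Calr, Pdia4, Sdf2l1, Manf, Creld2, Dnajb9, Herpud1 and Xbp1), and all 10 were found among the 16314 gene symbols of the count table. All 10 also passed the filter on low counts, which left 12021 genes for testing. BMDMs were grown from the marrow of Prep-/- mice and of their Prep+/- littermates with M-CSF at 50 ng/ml for 7 days. M0 cells received no stimulus, M1 cells received LPS at 50 ng/ml for 24 h, and M2 cells received IL-4 and IL-13, each at 20 ng/ml, for 24 h. RNA-seq of poly(A) RNA was carried out on 3 biological replicates in each of the 6 groups, 18 libraries in all. The mice were on a C57BL6/J background, and their age was not given in the sources used here. The controls carried 1 functional Prep allele, no Prep+/+ group was included, and the knockout was constitutive rather than limited to macrophages.

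The ER folds and modifies proteins that are bound for membranes, lysosomes or secretion. When unfolded proteins accumulate there, the sensors IRE1 (gene Ern1), ATF6 and PERK (gene Eif2ak3) start the unfolded protein response: IRE1 splices the Xbp1 mRNA, ATF6 is cleaved to an active factor, and PERK lowers translation and favours ATF4. ATF6 and spliced XBP1 raise chaperones, disulfide isomerases and degradation factors, and secretory cells as well as activated macrophages are known to make use of this programme. Counts per gene do not separate the spliced from the unspliced form of Xbp1.

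Total counts ranged from 19068237 to 22598279 per library. Prep itself, the targeted gene, lay between 551 and 900 normalized counts in the 9 Prep+/- libraries and between 31.2 and 68.1 in the 9 Prep-/- libraries, where normalized counts are counts divided by the TMM-scaled library size and multiplied by the mean of these sizes. It was 19.6-fold, 13.4-fold and 13.7-fold lower in Prep-/- M0, M1 and M2 BMDMs (edgeR adjusted p = 5.97e-10, 8.29e-09 and 2.48e-09). Replicate 3 of Prep-/- M0 and replicate 3 of Prep-/- M2 stood apart from the other libraries of their groups, with a chi-square per degree of freedom over genes of 113 and 120 and of 111 and 112, against 9.88 to 49.2 for all other replicate pairs. Without these libraries the number of members called was unaltered in the 6 comparisons that use them, and the exceptions for individual members are given beside their values. The 12 macrophage markers were present in every library, and they too differed between groups: their summed level was 21573 to 25368 CPM (counts scaled to library size) in Prep+/- M0 and 35280 to 54953 CPM in Prep-/- M0, with 8 of 12 higher and 0 lower. In M1 the sum was 48186 to 49409 CPM in Prep+/- and 34798 to 39711 CPM in Prep-/-, with 1 of 12 higher and 0 lower, and in M2 it was 12492 to 14940 and 16438 to 23003 CPM, with 2 of 12 higher and 0 lower. Markers of B and plasma cells, which have a strongly developed ER, summed to 20.8 to 137 CPM, and 3 of the 7 markers in the table were tested. Of these 7, Ms4a1 and Pou2af1 were at 0 in 17 of 18 libraries each, Cd79a in 10, Jchain in 8 and Tnfrsf17 in 6, while Cd79b (up to 243 normalized counts) and Sdc1 (up to 2779) were found in every library. In M0 all 3 markers tested were higher in Prep-/- cells (Cd79b by a log2 fold change of 1.42, Sdc1 by 0.91 and Tnfrsf17 by 2.55). In M1 Cd79b was higher (1.39), and Sdc1 (-0.43) and Tnfrsf17 (0.00) were not called. The M1 sum was 67.8 to 71.1 CPM in Prep+/- and 51.3 to 63.6 CPM in Prep-/- cells. In M2 the sum was 20.8 to 27.4 CPM in Prep+/- and 85.0 to 137 CPM in Prep-/- cells. Sdc1 reached far higher counts than the other markers of this list, so that this sum is largely Sdc1. Sdc1 was called higher there (2.29), while Cd79b (0.72) and Tnfrsf17 (1.03) were not called. Markers of granulocyte precursors summed to 56.9 to 72.6 CPM in Prep+/- M0 and 86.3 to 121 CPM in Prep-/- M0, but to 157 to 185 CPM in Prep+/- M1 and 36.2 to 57.5 CPM in Prep-/- M1. Mmp8 reached the highest counts of them, up to 3210 normalized counts, against up to 955 for Ngp. In M0, Camp (log2 fold change 1.46), Ltf (1.54) and Ngp (1.38) were higher in Prep-/- cells, and Mmp8 (0.24) and Mpo (-0.07) were not called. In M1, Mmp8 (-2.33) and Camp (-1.54) were lower, and Ltf (-0.51), Ngp (-0.43) and Mpo (-0.72) were not called. Stromal markers stayed between 0.876 and 22.4 CPM and dendritic cell markers between 0.200 and 2.64 CPM. The part of these markers in the results for the members was not tested, and in bulk RNA fewer cells of a type and less RNA per cell cannot be told apart.

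The 10 genes lie on 9 chromosomes of the build that the study aligned to, GRCm39, with positions from GENCODE. Hspa5 is at chr2:34661982-34668880 (plus strand, 8 exons), Hsp90b1 at chr10:86526073-86541446 (minus, 18 exons), Calr at chr8:85567946-85573667 (minus, 9 exons), and Pdia4 at chr6:47770077-47790462 (minus, 10 exons). Sdf2l1 is at chr16:16948002-16950252 (minus, 3 exons), Manf at chr9:106715511-106769727 (minus, 4 exons) and Creld2 at chr15:88703795-88710890 (plus, 10 exons). Dnajb9 is at chr12:44252341-44257171 (minus, 3 exons), Herpud1 at chr8:95113022-95123141 (plus, 8 exons) and Xbp1 at chr11:5470606-5483027 (plus, 4 exons). Calr, Sdf2l1 and Creld2 overlap no other annotated gene. Transcripts of Rabepk, on the opposite strand, share 1324 bases with Hspa5. Libraries kept the strand, but whether counting used it was not stated. Rabepk itself had 223 to 495 normalized counts, against at least 10644 for Hspa5. Manf overlaps Rbm15b on its own strand (440 to 644 normalized counts) and Dcaf1 on the other (115 to 331), and Xbp1 overlaps Ccdc117 on the other strand (347 to 640). Calr and Dnajb9 have processed pseudogenes with stretches of 495 and 697 bases at 92.5% and 93.3% identity, neither of which has a row in the table.

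Per kilobase of the canonical transcript, the order of the levels in Prep+/- M0 BMDMs put the most abundant ER lumen chaperones first. Calr, a lectin chaperone that binds calcium, had 12805 ± 241 normalized counts per kb (SD, n = 3), followed by Hsp90b1 (GRP94, the ER member of the HSP90 family) with 8852 ± 189 and Hspa5 (BiP, the ER member of the HSP70 family) with 4056 ± 219. Sdf2l1 had 2445 ± 78.1, Xbp1 1861 ± 21.0, Manf 1168 ± 82.5, Creld2 736 ± 48.0 and Pdia4 497 ± 33.8 normalized counts per kb. Herpud1 (340 ± 27.9) and Dnajb9 (315 ± 11.8) came last and did not differ beyond their spread. In Prep-/- M0 cells the distance between chaperones and Xbp1 was smaller: Calr had 5326 ± 759, Hsp90b1 4691 ± 605, Hspa5 2224 ± 124 and Xbp1 2106 ± 37.1 normalized counts per kb, and both the first and the last pair of these lay within their spread.

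The promoters of several members carry the ER stress response element (ERSE), the sequence through which ATF6, together with the CCAAT-binding factor NF-Y, acts on chaperone genes. It was searched as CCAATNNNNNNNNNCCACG on both strands, from 250 bases before to 50 bases after the start, in promoter sequences from RefSeq (GRCm38.p6), which hold 9 of the 10 members and lack Manf. It was found in 4 of these 9 and in 39 of all 32851 promoters (0.119%). The elements are shown because they are shared by the control regions of these 4 members. They are written on the strand of the motif with up to 5 bases on either side, and capitals mark its fixed letters. The printed stretches end at the start site, although the search went beyond it.
Hspa5, chr2:34772020-34772048, plus strand: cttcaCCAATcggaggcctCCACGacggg
Hsp90b1, chr10:86705633-86705661, minus strand: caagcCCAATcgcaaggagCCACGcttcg
Hsp90b1, chr10:86705528-86705556, plus strand: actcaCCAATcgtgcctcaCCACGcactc
Calr, chr8:84847070-84847098, plus strand: atgggCCAATgagggtcgaCCACGcgttg
Creld2, chr15:88819515-88819543, minus strand: gtggaCCAATtgaggctcgCCACGagaag

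The Hspa5 element began 65 bases before the start. The elements of Calr and Creld2 lay on the strand opposite to the gene, within 162 and 126 bases of the start, and Hsp90b1 had an element on either strand, within 107 and 212 bases. Without the last letter of the motif, which then occurs in 0.365% of all promoters, Pdia4 and Herpud1 had a match too, and that of Herpud1 ended at the base before the start. Herpud1 also held ERSE-II, searched as ATTGGNCCACG and found in 12 promoters (0.0365%).
Pdia4, chr6:47813597-47813624, plus strand: gaccaCCAATcacgggctgCCACtcggt
Herpud1, chr8:94386406-94386428, plus strand: ctcagCCAATggatggcagCCAC
Herpud1, ERSE-II, chr8:94386372-94386392, plus strand: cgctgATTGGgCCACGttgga

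None of these motifs was found in the promoters of Sdf2l1, Dnajb9 and Xbp1. The XBP1-binding element UPRE, searched as TGACGTGG, was in 0 of the 9 promoters and in 0.676% of all. A match is a run of letters and does not show that a factor binds there.

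In unstimulated M0 BMDMs, 7 ER chaperones and folding factors were lower in the absence of Prep and Herpud1 was higher. A gene was called where its fold change exceeded 1.5 and its adjusted p was below 0.05, which held for 7 of 10 members in the lower direction and 1 of 10 in the higher direction. Among all genes tested, 17.2% were called lower and 15.4% higher. The median log2 fold change of the members was -0.85, against 0.02 for all genes. Hspa5 had 18851, 20551 and 20863 normalized counts in the Prep+/- libraries and 11725, 10682 and 10644 in the Prep-/- libraries. Hsp90b1 had 25275, 25437 and 24438 in Prep+/- and 12730, 11902 and 15195 in Prep-/-. Calr, the most abundant of the 10 per length, had 29906, 29160 and 28830 in Prep+/- and 11606, 10813 and 14137 in Prep-/-. In each of these 3 genes every Prep-/- library lay below every Prep+/- library. Hspa5 was 1.82-fold lower (log2 fold change -0.87 ± 0.13 SE, adjusted p = 4.81e-05), Hsp90b1 1.89-fold lower (-0.92 ± 0.11, adjusted p = 9.92e-06) and Calr 2.40-fold lower (-1.27 ± 0.14, adjusted p = 3.27e-06).

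Sdf2l1, Manf, Pdia4 and Creld2 were lower as well. Sdf2l1, a partner of the BiP cochaperone DNAJB11, had 2792, 2747 and 2624 normalized counts in Prep+/- cells against 1002, 849 and 1420 in Prep-/- cells, and was 2.50-fold lower (adjusted p = 2.47e-05). Manf, which encodes a secreted ER stress protein that binds BiP, had 2520, 2838 and 2514 in Prep+/- and 1373, 1043 and 1443 in Prep-/-, and was 2.04-fold lower (adjusted p = 0.000204). Both genes had groups that did not overlap. Pdia4, a protein disulfide isomerase, had 2536, 2743 and 2907 in Prep+/- and 1617, 1546 and 1503 in Prep-/-, and was 1.75-fold lower (adjusted p = 4.64e-05). Creld2, an ER stress-inducible secreted protein, had 955, 1082 and 1057 in Prep+/- and 530, 537 and 675 in Prep-/-, and was 1.78-fold lower (adjusted p = 7.00e-04). These groups were separate as well, so that in M0 the genotypes did not overlap in any of the 10 members, as in 52.6% of all genes tested.

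Herpud1, a membrane component of the complexes that send ER proteins for degradation, moved the other way. It had 1148, 1054 and 974 normalized counts in Prep+/- BMDMs and 2105, 1739 and 1705 in Prep-/- BMDMs, 1.75-fold more (log2 fold change 0.81 ± 0.15, adjusted p = 0.000328). Dnajb9 (ERdj4), a cochaperone of BiP, had 800, 785 and 744 in Prep+/- and 1139, 1013 and 1028 in Prep-/-, with an adjusted p of 0.000495 and a fold change of 1.37, under the minimum for a call. Xbp1, the transcription factor downstream of IRE1, had 3639, 3711 and 3640 in Prep+/- and 4144, 4074 and 4220 in Prep-/- (log2 fold change 0.18 ± 0.08, adjusted p = 0.0863). All 3 genes had higher values in every Prep-/- library, and only Herpud1 was called. The 8 calls in M0 held in each of 15 alternative settings.

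**Figure D1:**
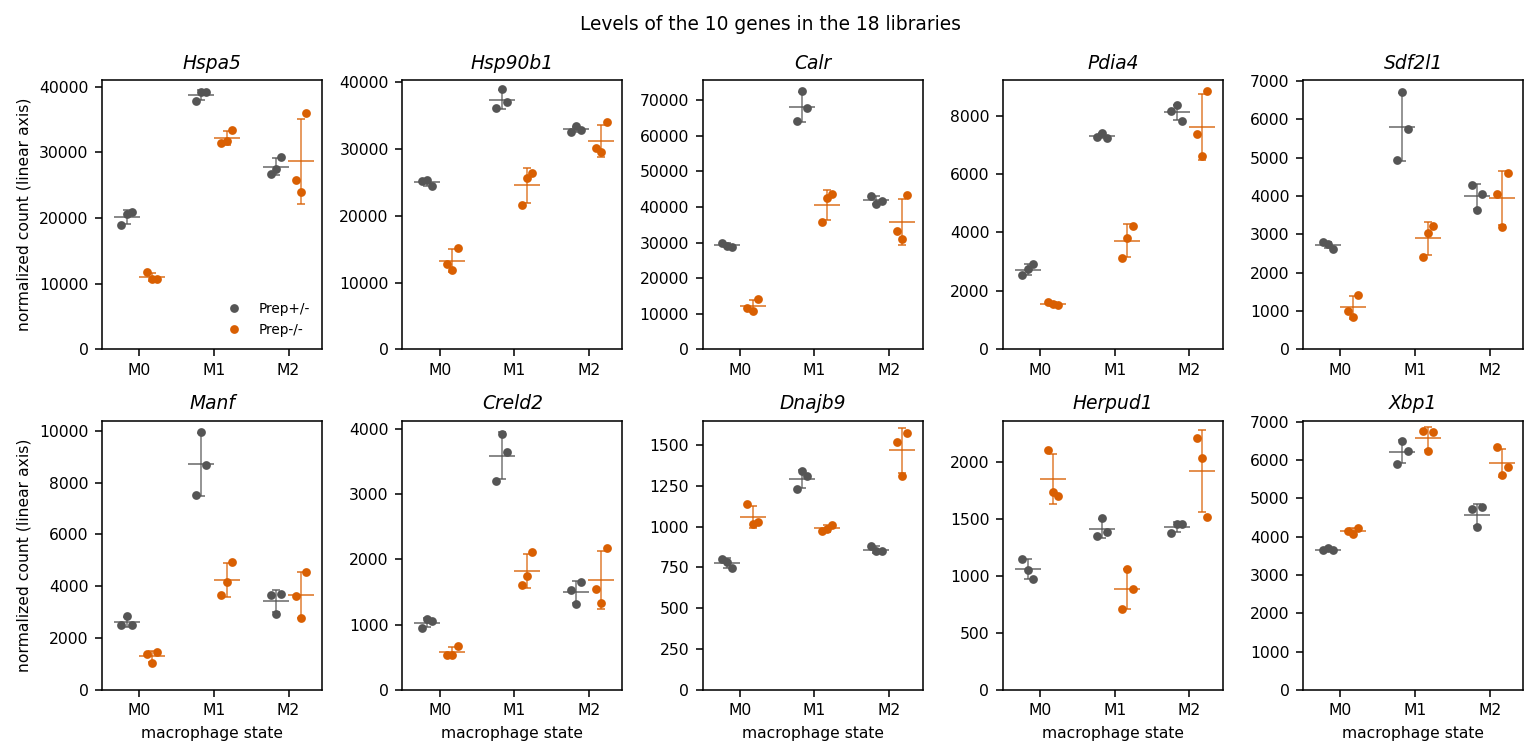
Normalized counts (linear axis from 0) of each gene in the M0, M1 and M2 state, with 1 point per library, the mean as a bar and the SD as error bars (n = 3); Prep+/- in grey and Prep-/- in orange. In the upper row and for Manf and Creld2, the orange points lie below the grey ones in M0 and M1 in all libraries, and in M2 they overlap them, for Hspa5, Hsp90b1, Calr and Pdia4 through replicate 3 alone, while Dnajb9 and Herpud1 lie above in M0 and M2 and below in M1.

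In LPS-stimulated M1 BMDMs, 7 of 10 members were lower in Prep-/- cells and 0 were higher, while 10.2% of all genes were called lower and 12.3% higher. The median log2 fold change of the members was -0.71. Pdia4 had 7282, 7418 and 7247 normalized counts in Prep+/- M1 and 3109, 3812 and 4227 in Prep-/- M1, and was 1.97-fold lower (log2 fold change -0.98 ± 0.12, adjusted p = 5.09e-05). Manf had 7509, 9940 and 8672 against 3642, 4171 and 4946 and was 2.05-fold lower (adjusted p = 0.000519). Sdf2l1 had 4944, 6720 and 5746 against 2415, 3046 and 3209 and was 2.01-fold lower (adjusted p = 0.000618). In M1 the groups were separate, with Prep-/- below, in 9 of 10 members, all but Xbp1. The share of all genes with separate groups is not given for M1. Creld2 had 3210, 3926 and 3649 against 1607, 1744 and 2110 and was 1.97-fold lower (adjusted p = 0.000456). Calr had 64176, 72523 and 67837 against 35653, 42392 and 43581 and was 1.68-fold lower (adjusted p = 0.000715). Hsp90b1 had 36196, 38949 and 37115 against 21573, 25745 and 26474 and was 1.52-fold lower (adjusted p = 0.000834). Hsp90b1 lies just over the minimum fold change, and its call was lost without replicate 2 of Prep+/- M1 (log2 fold change -0.58) and without replicate 1 of Prep-/- M1 (-0.53).

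Hspa5 was an exception among the chaperones in M1. Its 3 Prep-/- libraries (31412, 31712 and 33349 normalized counts) all lay below its Prep+/- libraries (37758, 39112 and 39205), but by a log2 fold change of only -0.27 ± 0.13 with an adjusted p of 0.108 (95% interval -0.53 to -0.00). Herpud1, higher in Prep-/- cells in M0, was 1.60-fold lower in M1, with 1348, 1506 and 1388 normalized counts in Prep+/- and 711, 1059 and 888 in Prep-/- (adjusted p = 0.00282). Without replicate 1 of Prep-/- M1, the lowest of these, its log2 fold change was -0.55 and it was not called. Dnajb9 also had the opposite sign to M0, with 1232, 1338 and 1307 in Prep+/- and 972, 985 and 1010 in Prep-/- (log2 fold change -0.39 ± 0.09, adjusted p = 0.00318), under the minimum fold change. Xbp1 did overlap, with 5904, 6504 and 6224 in Prep+/- and 6753, 6223 and 6720 in Prep-/- (adjusted p = 0.470).

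In M2 BMDMs none of the 7 chaperones that were lower in M0 was called between genotypes. Of the 10 members, 1 was called higher and 0 lower, with 6.37% of all genes called higher and 9.82% lower, and the median log2 fold change was 0.06. Hspa5 had 26763, 27381 and 29284 normalized counts in Prep+/- M2 and 25814, 23976 and 36010 in Prep-/- M2. Calr had 43198, 40977 and 41701 against 33216, 30956 and 43236, and Sdf2l1 had 4275, 3637 and 4049 against 4060, 3202 and 4594. The highest Prep-/- value of each came from replicate 3, which stands apart. Replicates 1 and 2 of Prep-/- lay below every Prep+/- library in Hspa5 and Calr and within or below their range in Sdf2l1. Without replicate 3 the log2 fold change of Hspa5 was -0.15 (adjusted p = 0.274) instead of 0.04 ± 0.13 (adjusted p = 0.853). That of Calr was -0.37 without it (adjusted p = 0.0410, under the minimum fold change) instead of -0.23. The 95% interval of the log2 difference was -0.23 to 0.31 for Hspa5, -0.31 to 0.16 for Hsp90b1, -0.51 to 0.05 for Calr, -0.34 to 0.16 for Pdia4, -0.38 to 0.36 for Sdf2l1, -0.28 to 0.46 for Manf and -0.17 to 0.52 for Creld2. The test of the genotype difference in M2 against that in M0 is the same as that of the IL-4 and IL-13 response between genotypes, given further on. Hsp90b1 had 32637, 33393 and 32835 against 30209, 29523 and 34036, and Pdia4 had 8165, 8350 and 7823 against 7380, 6619 and 8843. In both, replicate 3 was above and the other Prep-/- libraries were below every Prep+/- library, and without replicate 3 the log2 fold changes were -0.13 and -0.20 (adjusted p = 0.454 and 0.194). Manf had 3644, 2937 and 3705 against 3627, 2766 and 4546, and Creld2 had 1533, 1310 and 1648 against 1550, 1326 and 2184.

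The member called in M2 was Dnajb9, with 881, 849 and 848 normalized counts in Prep+/- and 1516, 1311 and 1574 in Prep-/-, 1.71-fold more (log2 fold change 0.77 ± 0.09, adjusted p = 1.92e-05), and the call held in each of 15 alternative settings. Xbp1 had 4711, 4245 and 4766 in Prep+/- and 6328, 5606 and 5822 in Prep-/-, with a log2 fold change of 0.37 ± 0.08 (adjusted p = 0.00384). Herpud1 had 1378, 1458 and 1453 in Prep+/- and 2216, 2033 and 1517 in Prep-/-, with a log2 fold change of 0.43 ± 0.15 (adjusted p = 0.0428). In both, every Prep-/- library was above every Prep+/- library, and the fold change was under 1.5.

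**Figure D2:**
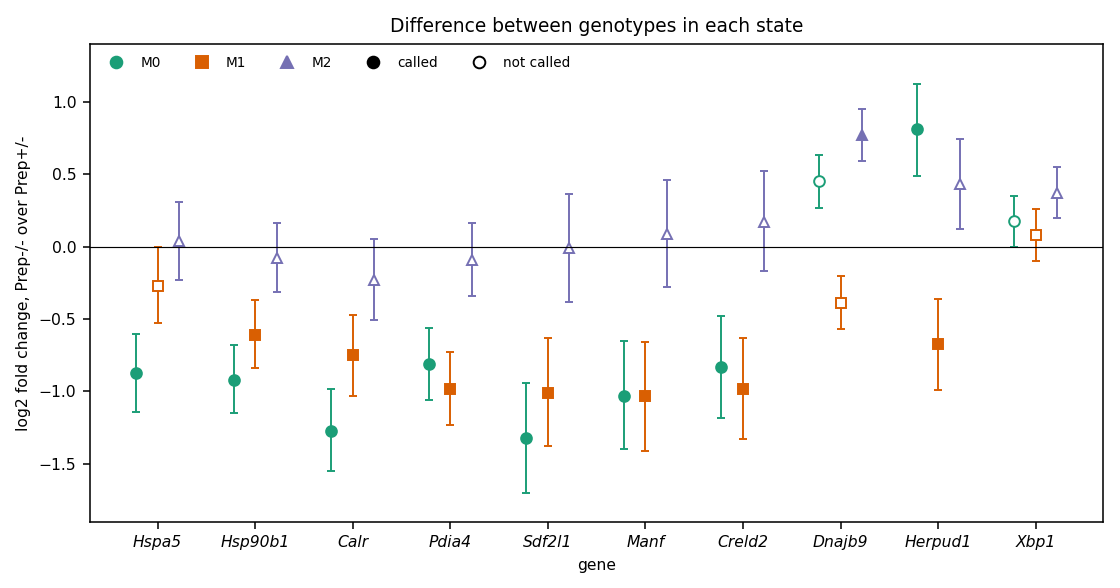
Log2 fold change of Prep-/- over Prep+/- for each gene in M0 (circles), M1 (squares) and M2 (triangles), with 95% intervals from the edgeR fit; filled symbols are called and open ones are not. The 7 chaperones on the left lie between -0.81 and -1.32 in M0 and between -0.23 and 0.17 in M2, and Herpud1 changes sign from 0.81 in M0 to -0.67 in M1.

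LPS raised most of the 10 transcripts in both genotypes. In Prep+/- BMDMs 8 of 10 were higher in M1 than in M0 and 0 were lower (16.7% of all genes were called higher and 20.9% lower), with a median log2 fold change of 1.02. Creld2 rose 3.49-fold (adjusted p = 1.71e-07), Manf 3.32-fold (5.63e-07), Pdia4 2.68-fold (5.48e-08), Calr 2.33-fold (1.24e-06), Sdf2l1 2.13-fold (6.81e-05), Hspa5 1.93-fold (9.79e-06), Xbp1 1.70-fold (1.05e-06) and Dnajb9 1.66-fold (2.39e-06). The other 2 had M1 libraries that were all above the M0 libraries, but a fold change under the minimum, of 1.49 for Hsp90b1 and 1.34 for Herpud1. In Prep-/- BMDMs 8 of 10 were higher and 1 was lower (20.9% and 21.0% of all genes), with a median of 1.33. Calr (3.33-fold), Manf (3.31-fold), Creld2 (3.14-fold), Hspa5 (2.92-fold), Sdf2l1 (2.65-fold), Pdia4 (2.39-fold), Hsp90b1 (1.85-fold) and Xbp1 (1.58-fold) rose, with adjusted p-values from 3.23e-08 to 5.57e-06. The call of Xbp1 was lost with upper-quartile scaling (log2 fold change 0.53), which lowers the median of all genes by 0.13 in this comparison. Herpud1 fell 2.09-fold (adjusted p = 1.45e-05), and Dnajb9 had a log2 fold change of -0.10 ± 0.09 (adjusted p = 0.338).

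The genotypes differed in their LPS response in 3 members. The difference itself, tested as an interaction, was called higher for 1 of 10 members and lower for 2 of 10, against 12.0% and 9.15% of all genes, and its median was -0.05. Herpud1 had the largest difference, -1.48 ± 0.21 on the log2 scale (adjusted p = 0.000167), between a log2 fold change of 0.42 in Prep+/- and -1.06 in Prep-/- cells. Dnajb9 followed with -0.84 ± 0.12 (adjusted p = 0.000221), between 0.74 and -0.10. Hspa5 had a difference of 0.60 ± 0.18 (adjusted p = 0.0224), which kept its direction in 21 alternatives (0.56 to 0.65) but was called in only 10 of them, among others not without both libraries that stand apart (0.58). For Calr the difference was 0.52 ± 0.19 (adjusted p = 0.0565), and without replicate 3 of Prep-/- M0 it was 0.64 and was called. In Manf the difference was -0.01 ± 0.25 (95% interval -0.53 to 0.52).

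The response to IL-4 and IL-13 differed between the genotypes in 7 members. In Prep+/- BMDMs 1 of 10 members was called higher in M2 than in M0 and 0 lower (6.09% of all genes were called higher and 6.77% lower), and this was Pdia4, which rose 2.97-fold (log2 fold change 1.57 ± 0.12, adjusted p = 8.73e-08). All 10 members had M2 libraries above the M0 libraries, as had 22.6% of all genes. The median was 0.45, and with no minimum fold change 8 of 10 would be called. Their folds lay between 1.11 for Dnajb9 and 1.47 for Sdf2l1, Pdia4 aside. In Prep-/- BMDMs 7 of 10 were higher and 0 lower (14.7% and 15.5% of all genes), with a median of 1.44. Pdia4 rose 4.90-fold (adjusted p = 6.23e-10), Sdf2l1 3.63-fold (5.85e-07), Calr 2.94-fold (1.70e-07), Creld2 2.91-fold (2.07e-06), Manf 2.83-fold (5.31e-06), Hspa5 2.60-fold (3.41e-07) and Hsp90b1 2.35-fold (2.51e-07). Xbp1 and Dnajb9 had log2 fold changes of 0.51 ± 0.08 (adjusted p = 0.000118) and 0.47 ± 0.09 (adjusted p = 0.000351), under the minimum, and Herpud1 overlapped between M0 and M2 (0.06 ± 0.15, adjusted p = 0.784).

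The difference between the genotypes in the IL-4 and IL-13 response was called higher for 7 of 10 members and lower for 0, against 4.53% and 4.13% of all genes, and its median was 0.87. The log2 difference was largest for Sdf2l1 (1.31 ± 0.25, adjusted p = 0.00528), then Manf (1.12 ± 0.25, adjusted p = 0.0116), Calr (1.04 ± 0.19, adjusted p = 0.00413), Creld2 (1.0 ± 0.23, adjusted p = 0.0144), Hspa5 (0.91 ± 0.18, adjusted p = 0.00622), Hsp90b1 (0.84 ± 0.16, adjusted p = 0.00457) and Pdia4 (0.72 ± 0.17, adjusted p = 0.0138). It was 0.32 for Dnajb9, 0.19 for Xbp1 and -0.38 for Herpud1, with adjusted p-values of 0.108, 0.320 and 0.264. The comparison shares its M0 libraries with the comparison of genotypes in M0. In these 7 genes the M0 libraries of Prep-/- cells lay below those of Prep+/- cells, and the M2 libraries of the genotypes overlapped, in Hspa5, Hsp90b1, Calr and Pdia4 only through replicate 3 of Prep-/- M2, which stands apart.

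**Figure D3:**
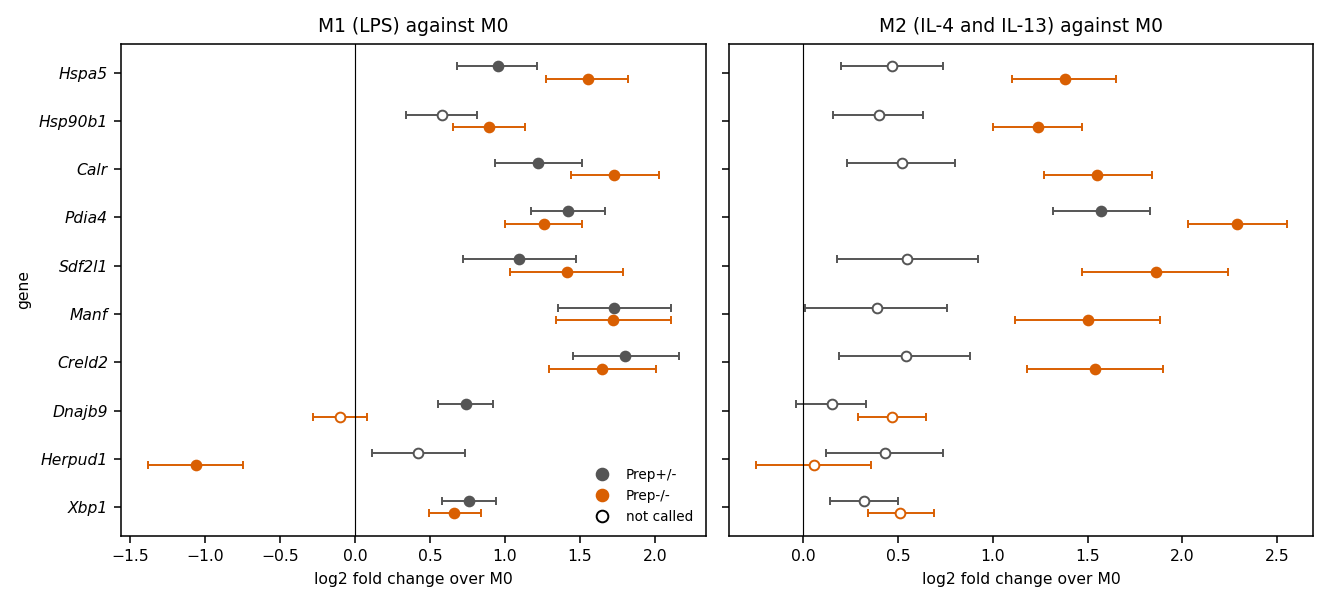
Log2 fold change over M0 with 95% intervals (edgeR) for each gene under LPS (left) and under IL-4 and IL-13 (right); Prep+/- in grey and Prep-/- in orange, with open symbols where a gene was not called. Under IL-4 and IL-13 the orange symbols of the first 7 genes lie between 1.24 and 2.29 and the grey ones, apart from Pdia4 at 1.57, between 0.39 and 0.55; under LPS Herpud1 lies at -1.06 in Prep-/- cells and 0.42 in Prep+/- cells.

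Over the 18 libraries the 10 members formed a tight group and 3 looser genes. Pearson correlations of log2 CPM are given here as a description, since the libraries share groups, depth and scaling. The 7 chaperones are also those called lower in Prep-/- M0 in these same libraries, so their correlation is not independent of that result. Among the 7 chaperones every pair correlated at 0.76 or above, with 0.99 for Manf and Creld2 and for Hsp90b1 and Sdf2l1, and 0.97 for Hspa5 and Calr. Xbp1 correlated with the 7 chaperones at 0.46 to 0.75, Dnajb9 at 0.21 to 0.42 and Herpud1 at -0.36 to 0.10. Herpud1 was nearest to Dnajb9 (0.54). After the group means were taken out, the correlation with the mean of the other members was 0.97 for Manf, 0.86 for Calr and Sdf2l1, and 0.85 for Creld2. It was 0.74 for Hsp90b1, 0.67 for Dnajb9, 0.64 for Pdia4, 0.58 for Hspa5, 0.30 for Xbp1 and -0.14 for Herpud1. Within groups Dnajb9 thus lay above Pdia4 and Hspa5. The 10 other genes whose pattern was most like the mean of the members were Ptges2 (r = 0.972), Grpel1 (0.959), Psma4 (0.957), Med27 (0.955), Sar1a (0.955), Dcaf13 (0.953), Ssr2 (0.952), Fbxo22 (0.945), Ufm1 (0.940) and Ndufaf4 (0.940). Sar1a is a GTPase of COPII vesicles, which leave the ER, and Ssr2 is a subunit of the complex at the ER translocon. Grpel1 belongs to the list of mitochondrial chaperones, and the remaining genes belong to none of the gene lists used here.

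**Figure D4:**
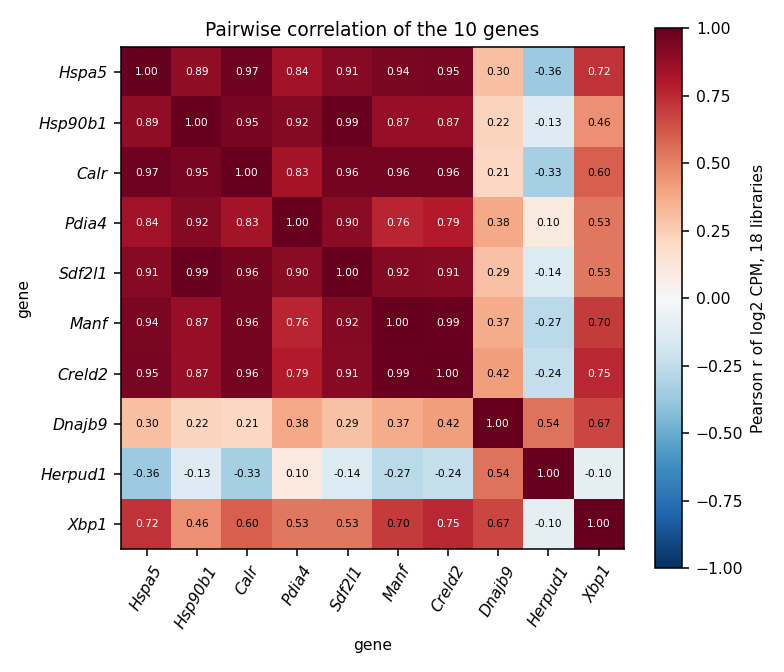
Pearson correlation of log2 CPM (prior count 2) between each pair of the 10 genes over the 18 libraries, on a scale from -1 (blue) to 1 (red). The 7 chaperones, which are those called lower in Prep-/- M0, form a block at 0.76 to 0.99, and Herpud1 lies between -0.36 and 0.10 with each of them.

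The sensors above these genes are listed with the proteases that activate ATF6. Of 6 genes for sensors and their proteases (Ern1, Eif2ak3, Atf6, Atf6b, Mbtps1 and Mbtps2), Ern1, which encodes IRE1, was higher in Prep-/- cells in all 3 states, with log2 fold changes of 1.09 ± 0.17 in M0, 0.69 ± 0.18 in M1 and 0.89 ± 0.17 in M2 (adjusted p = 0.000109, 0.00681 and 0.00151). The other 5 were not called between genotypes in any state. Over all genes, 15.4%, 12.3% and 6.37% were called higher in M0, M1 and M2, and 17.2%, 10.2% and 9.82% lower. With LPS, Atf6b rose in both genotypes (0.82 ± 0.08 and 0.67 ± 0.08), and in Prep+/- cells Eif2ak3 (-0.83 ± 0.17) and Mbtps1 (-0.66 ± 0.14) fell. There 16.7% of all genes were called higher and 20.9% lower, and in Prep-/- cells 20.9% and 21.0%. Mbtps1 encodes the protease that cuts ATF6 first, and is named, after its value was seen, to complete the count.

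The genes listed for the PERK and ATF4 arm did not follow the chaperones in M1. Their transcript levels do not measure the activity of PERK, and what changed them was not tested. Of these 10 genes, 1 was higher and 4 were lower in Prep-/- M0 cells (15.4% and 17.2% of all genes). Among the lower ones were Atf4 itself (log2 fold change -1.27 ± 0.17, adjusted p = 2.41e-05) and the asparagine synthetase gene Asns (-2.92 ± 0.40, adjusted p = 2.50e-05). In M1, 9 of 10 were higher and 0 lower (12.3% and 10.2% of all genes), with a median of 1.29, including Trib3 (1.99 ± 0.32, adjusted p = 0.000376), which encodes a pseudokinase induced by ATF4, and the stress gene Nupr1 (1.28 ± 0.22, adjusted p = 0.000493). Atf4 was the gene not called there (0.44, adjusted p = 0.0523). In M2, 0 were higher and 1, the glutathione-degrading Chac1, was lower (-1.33 ± 0.47, adjusted p = 0.0484), against 6.37% and 9.82% of all genes. The Chac1 libraries of the genotypes overlapped in M2. The difference between genotypes in the LPS response was called higher for 7 of 10, against 12.0% of all genes, with 4.87 ± 0.55 for Asns (adjusted p = 3.01e-05).

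Other factors of ER folding behaved partly like the members. Of 27 tested genes for further chaperones, isomerases and oxidases, 9 were lower and 3 higher in Prep-/- M0 (17.2% and 15.4% of all genes). In M1, 5 were lower and 0 higher (10.2% and 12.3% of all genes). In M2, 1 was lower and 0 higher (9.82% and 6.37% of all genes). The medians were -0.33, -0.32 and 0.07, against 0.02, 0.04 and 0.03 for all genes. Pdia6, a disulfide isomerase, was lower in M0 (-1.43 ± 0.16, adjusted p = 4.54e-06) and M1 (-0.78 ± 0.16, adjusted p = 0.00152). IL-4 and IL-13 changed 0 of the 27 in Prep+/- cells at the threshold of edgeR (6 at an unadjusted p under 0.05, 0 called by DESeq2). There 6.09% of all genes were called higher and 6.77% lower. In Prep-/- cells 13 were raised and 0 lower, against 14.7% and 15.5% of all genes. Among the 13 was Hyou1, the large ER chaperone that exchanges nucleotide on BiP (1.98 ± 0.18, adjusted p = 2.21e-07). The difference in that response was called higher for 10 of 27 and lower for 0, against 4.53% and 4.13% of all genes. Among 18 genes of ER-associated degradation, where Herpud1 acts, 0 were lower in Prep-/- cells in any state, and 1 was higher in M0, 2 in M1 and 1 in M2. Of all genes, 17.2%, 10.2% and 9.82% were called lower and 15.4%, 12.3% and 6.37% higher in these states. The genes called include Edem2, a mannosidase-like degradation factor, in M1 (0.67 ± 0.10, adjusted p = 0.000209) and M2 (0.82 ± 0.10, adjusted p = 3.37e-05).

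Genes with a full ERSE were also counted, a choice made after the values were seen. Of 37 such genes 16 were tested, 12 of them outside the 10 members. Among the 12, 2 were lower and 0 higher in Prep-/- M0 (Pdia6 and the RNA-binding protein gene Hnrnpa3), against 17.2% of all genes lower, 1 was lower in M1 (Pdia6), against 10.2%, and 0 were called in M2 (4 at an unadjusted p under 0.05 in edgeR, 0 called by DESeq2). IL-4 and IL-13 raised 0 of the 12 in Prep+/- cells (3 at an unadjusted p under 0.05, 0 by DESeq2) and 7 in Prep-/- cells, where 1 was lower, against 14.7% and 15.5% of all genes. The median log2 fold change of the 12 was -0.23 between genotypes in M0 and 0.20 in M2, against 0.02 and 0.03 for all genes.

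**Figure D5:**
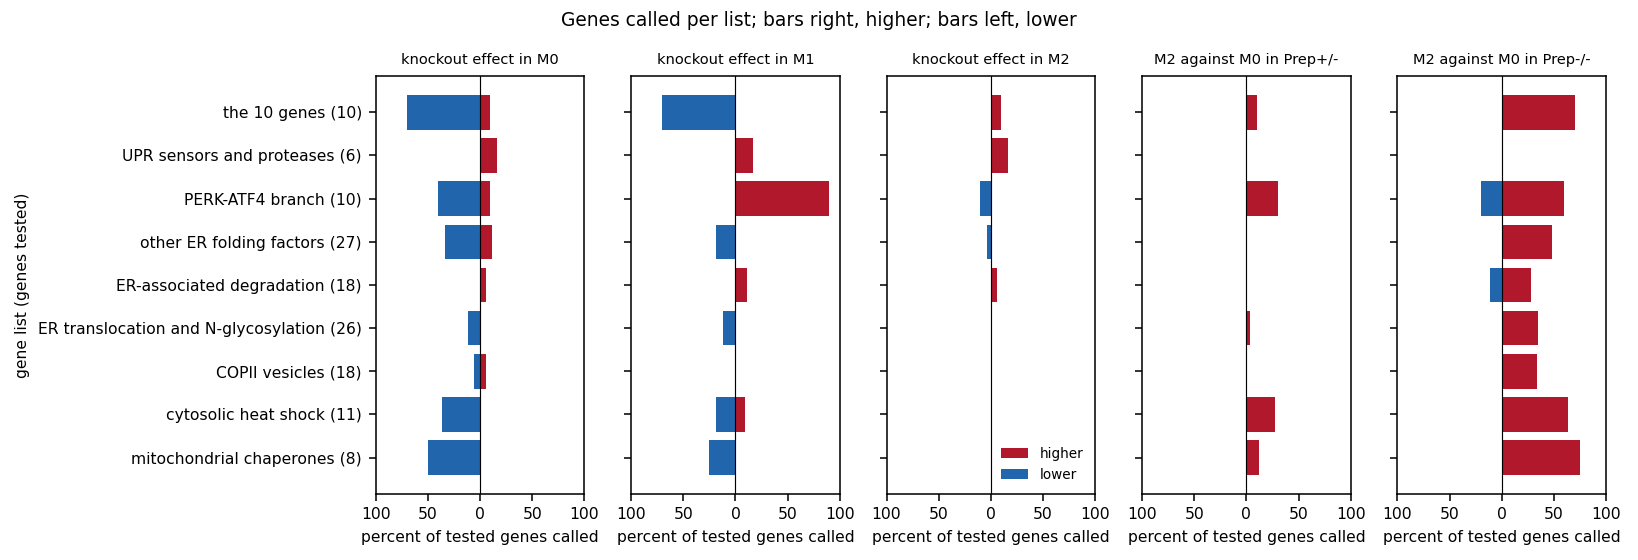
Percent of the tested genes of each list that were called higher (red, to the right) or lower (blue, to the left) in the 3 comparisons of genotypes and in M2 against M0 within each genotype; the number tested stands after each name. The 10 genes have 7 calls lower in M0 and M1 and 1 call in M2, and the PERK-ATF4 list has 9 of 10 higher in M1.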

How the data were processed

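Bulk RNA-seq libraries were grouped by the genotype and state in the sample labels, 18 libraries in 6 groups of 3. Per the labels and the methods, the authors trimmed reads with Trimmomatic 0.36, aligned them to GRCm39 with HISAT2 2.2.1.0 and counted with stringtie2, and they deposited unnormalized counts per gene symbol. The annotation release, strand setting and handling of reads that match several genes were not given in the sources used here.

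From the counts, genes were filtered with filterByExpr and scaled by TMM (factors 0.818 to 1.20). The 9 comparisons were fitted to all 18 libraries, each group having its own coefficient, by the quasi-likelihood method of edgeR 4.0.16 (with limma 3.58.1) in R 4.3.3, and Benjamini-Hochberg adjustment ran over 12021 genes. DESeq2, the study's tool, served as an alternative at the same thresholds (version 1.42.0). Standard errors are those implied by the quasi-likelihood F, and intervals are 95%. Normalized counts are counts over TMM-scaled library sizes, times their mean. On simulated counts for the comparison of genotypes in M0 (11773 genes, 200 changed), 95.5% of the changed genes were recovered, and in an unchanged comparison 0 were called. Every simulated gene had the same spread, no library stood apart, and all changes set were larger than the minimum fold change. These rates therefore check the code and are not rates for the measured counts. Depth was similar among libraries and the lowest normalized count of a member in any library was 530. How much of the replicate spread was counting error was not tested.

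The members and gene lists were chosen with earlier results of these data known. Named genes were all members, Prep, in each other pathway list and comparison up to 2 called genes with the smallest adjusted p, and the 10 genes most like the members' mean (log2 CPM, prior count 2); others are marked where they stand. Alternatives were DESeq2, other scalings and filters, only the libraries compared, a replicate block, no minimum fold change, each library left out, and, added after seeing the data, both libraries that stand apart left out.

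The labels do not say what a replicate number marks, and p-values measure the spread between these libraries. The deviations of same-numbered libraries correlated at 0.249, 0.255 and 0.462 between genotypes in M2. Between M0 and M1 in Prep-/- cells they correlated at 0.201, 0.169 and 0.259. The p-values of the 9 comparisons come from a fit without pairs, and a replicate block was used only as an alternative. Any pairing rests on these correlations alone. Transcript copies were searched with blastn 2.17.0 (at least 100 bases at 90% identity). Positions came from GENCODE on GRCm39 and promoters from RefSeq on GRCm38.p6, which were not mixed. Pdia4's transcript holds a repeat of up to 160 bases. Plots were made in Python 3.11.15 (matplotlib 3.10.9).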

Additional observations from a re-analysis of the deposited data

Results flagged for a closer look

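The response to a stimulus differed between Prep+/- and Prep-/- BMDMs for 10 values, each tested as an interaction in the edgeR fit. For LPS, the log2 difference (Prep-/- response minus Prep+/- response) was -1.48 for Herpud1 (adjusted p = 0.000167), -0.84 for Dnajb9 (adjusted p = 0.000221) and 0.60 for Hspa5 (adjusted p = 0.0224). For IL-4 and IL-13, it was 1.31 for Sdf2l1 (adjusted p = 0.00528), 1.12 for Manf (adjusted p = 0.0116), 1.04 for Calr (adjusted p = 0.00413), 1.0 for Creld2 (adjusted p = 0.0144), 0.91 for Hspa5 (adjusted p = 0.00622), 0.84 for Hsp90b1 (adjusted p = 0.00457) and 0.72 for Pdia4 (adjusted p = 0.0138). The M0 libraries enter both differences, so they are not independent of each other.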

How the results depend on the processing

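Among counts of members called, that for genotypes in M2 went from 1 to 3 and that for M2 against M0 in Prep+/- cells from 1 to 8 with no minimum fold change. The latter ranged from 1 to 2 with each library left out, with Creld2 added without replicate 2 of Prep+/- M2 (log2 fold change 0.63). The other 7 counts kept within 1.5 times under every alternative. The sign turned only for values near 0 that were not called: under upper-quartile factors Herpud1 in M2 against M0 in Prep-/- cells was -0.00, and with no low-count filter the LPS difference of Manf was 0.00. With both libraries that stand apart left out, the log2 fold changes between genotypes in M2 were -0.15 for Hspa5, -0.09 for Manf and -0.04 for Creld2, and the LPS difference of Manf was 0.09. With each library left out, the ranges were -0.15 to 0.16 for Hspa5, -0.12 to 0.12 for Sdf2l1, -0.09 to 0.26 for Manf, -0.20 to 0.00 for Pdia4 and -0.04 to 0.32 for Creld2 between genotypes in M2, -0.09 to 0.19 for Herpud1 in M2 against M0 in Prep-/- cells, and -0.15 to 0.09 for the LPS difference of Manf. The cause of these turns was not tested. Hsp90b1 in M1 against M0 in Prep+/- cells (0.58) was called in 5 of 14 alternatives, which gave 0.46 to 0.60.

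With a replicate block over all libraries, the members called were 8, 7 and 1 between genotypes in M0, M1 and M2, and 9 for M1 against M0 in Prep-/- cells, as without it. With the block over only the libraries compared, Hsp90b1 was called in M1 against M0 in Prep+/- cells (0.59) and Hspa5 lost its LPS difference (0.57), as it did over the same libraries without the block. In the 2 comparisons where every library correlated best with its own number, the block changed no call of a member. In the other comparisons the same-numbered libraries correlated at -0.315 to 0.245, and not every library correlated best with its own number.

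Calls over all genes were less stable. For the difference in the IL-4 and IL-13 response, 545 were higher and 496 lower, but 252 and 310 over only the libraries compared, 306 and 363 with the block there, and 268 and 234 without replicate 2 and 271 and 284 without replicate 3 of Prep+/- M0; 304 and 253, 301 and 308 without replicates 1 and 2 of Prep+/- M2. Between genotypes in M1, 1476 and 1224 became 961 and 781 without replicate 1 of Prep-/- M1, and for M2 against M0 in Prep-/- cells 1767 and 1869 became 1198 and 1143 with the block over only the libraries compared. Upper-quartile factors lowered the median of all genes by 0.12 and 0.13 in M1 against M0.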

Other observations

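Some chaperones outside the ER were lower in Prep-/- M0 BMDMs, where 17.2% of all genes were called lower and 15.4% higher. Of 11 tested genes of the cytosolic heat shock response, 4 were lower and 0 higher and 7 were not called, with a median log2 fold change of -0.28 and a value of -2.11 ± 0.27 for Hsp90aa1, the inducible cytosolic HSP90 (edgeR adjusted p = 1.47e-05), and -0.60 ± 0.09 for Dnajb1, a cochaperone of HSP70 (adjusted p = 5.89e-05). Of 8 mitochondrial chaperones and proteases, 4 were lower and 0 higher and 4 were not called, with a median of -0.51 and a value of -1.06 ± 0.14 for Hspa9, the mitochondrial HSP70 (adjusted p = 2.20e-05), and -1.32 ± 0.21 for Hspd1, the chaperonin HSP60 (adjusted p = 0.000110). In M1, 2 heat shock genes were lower and 1, Hspa1a, was higher (1.3 ± 0.40, adjusted p = 0.0184), and 2 mitochondrial genes were lower. Of all genes, 10.2% were called lower and 12.3% higher in M1. In M2, 0 of both lists were called by edgeR and by DESeq2, with 3 heat shock genes and 1 mitochondrial gene at an unadjusted p under 0.05. IL-4 and IL-13 raised 7 of 11 and 6 of 8 in Prep-/- cells (14.7% of all genes) and 3 of 11 and 1 of 8 in Prep+/- cells (6.09%). The difference was called higher for 2 of 11 and 3 of 8, against 4.53% of all genes.

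Genes of ER entry and exit were counted in the same way. Of 26 genes of translocation and N-glycosylation, 3 were lower and 0 higher in Prep-/- M0, where 17.2% of all genes were called lower and 15.4% higher. The lower ones include Rpn1, a subunit of the oligosaccharyltransferase (-0.77 ± 0.15, adjusted p = 0.000493). In M1, 3 were lower and 0 higher, where 10.2% of all genes were called lower, and 0 were called in M2 (8 at an unadjusted p under 0.05, 1 called by DESeq2). Of 18 genes of COPII vesicles, 1 was higher and 1 lower in M0 and 0 were called in M1 and M2 by either tool (7 and 6 at an unadjusted p under 0.05). The gene lower was Lman1, a cargo receptor (-0.67 ± 0.20, adjusted p = 0.0131), and the gene higher was Kdelr1, which retrieves ER proteins from the Golgi (0.60 ± 0.12, adjusted p = 0.000732). IL-4 and IL-13 raised 9 of 26 and 6 of 18 in Prep-/- cells and 1 of 26 and 0 of 18 in Prep+/- cells, against 14.7% and 6.09% of all genes.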
